A study of Mus musculus with 8 samples.

Results

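*Hspa1a*, *Hspa1b*, *Hspa8*, *Hspa5*, *Hspa4l* and *Hsph1* encode chaperones of the Hsp70 and Hsp110 families. They were taken by name from the genes listed in primary colonic intestinal epithelial cells (IECs) on day 0, and made up 6 of 309 listed genes. None of the 6 was among the 128 genes listed on day 7. The study sequenced RNA of colonic IECs from mice of 2 genotypes, on day 0 without dextran sodium sulfate (DSS, which injures the colonic epithelium) and on day 7 after DSS, with 2 libraries in each of 4 groups. In *Efhd2*f/f Vil1cre/+ mice, Cre expressed under the villin promoter deletes the loxP-flanked exon 2 of *Efhd2*, a calcium-binding EF-hand protein, in the intestinal epithelium. The *Efhd2*f/f controls carry the same floxed alleles and no Cre. The study used young adult mice of both sexes, and the sources used here do not say which sex, or how many animals, went into a library. IECs were shaken off the colon in buffer with DTT and then EDTA and strained, with no sort for epithelial cells, so other cells could be carried along.

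The 309 genes are those that passed the authors' thresholds for a difference between the genotypes on day 0, that is, a log2 change beyond 1 in either direction in DESeq2 at an adjusted p under 0.05. The 6 genes were thus selected on their normalized counts in these same libraries, and their levels and differences are given as a description, without a test. A gene that is not listed may be unchanged, may have missed a threshold or may have been too low to test. Levels are normalized counts, that is, reads per gene after the authors' scaling between libraries, and libraries are called by the numbers that the table gives them (51 and 53 for *Efhd2*f/f Vil1cre/+, 50 and 52 for *Efhd2*f/f). The labels number replicates in another way, and nothing says whether the libraries came from separate animals, so the spread between them may be technical. The depth of a library is unknown, since the tables hold only the listed genes. The targeted gene went with the genotype labels: *Efhd2* was at 555.5 and 713.3 normalized counts in libraries 51 and 53 and at 2663 and 2686 in libraries 50 and 52, a log2 fold change of -2.09 (standard error 0.18).

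Hsp70 chaperones bind exposed hydrophobic stretches of unfolded proteins and let them go again in a cycle of ATP binding and hydrolysis. J-domain proteins (Hsp40) deliver clients and start hydrolysis, and nucleotide exchange factors, among them the Hsp110 proteins, restart the cycle. Under heat or other proteotoxic stress, heat shock factor 1 binds heat shock elements, which are inverted repeats of the unit GAA, and switches on the inducible members, while *Hspa5* belongs to the unfolded protein response of the endoplasmic reticulum. In the gut epithelium, which renews itself quickly and faces microbes and toxins, inducible Hsp70 is known as a protective protein.

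The promoters of 3 of the genes are shown because they hold a heat shock element or the element of the unfolded protein response. Each is the 250 bases before a RefSeq transcript start on GRCm38.p6, written 5′ to 3′ on the strand of the gene, with heat shock elements of 2 units (GAA and TTC in either order, separated by any 2 bases) or the endoplasmic reticulum stress element (CCAAT, any 9 bases, CCACG) in capitals. They lie at chr17:34972157-34972406 on the minus strand (*Hspa1a*), at chr5:149636337-149636586 on the minus strand (*Hsph1*, the first of its 2 starts) and at chr2:34771840-34772089 on the plus strand (*Hspa5*).
Hspa1a: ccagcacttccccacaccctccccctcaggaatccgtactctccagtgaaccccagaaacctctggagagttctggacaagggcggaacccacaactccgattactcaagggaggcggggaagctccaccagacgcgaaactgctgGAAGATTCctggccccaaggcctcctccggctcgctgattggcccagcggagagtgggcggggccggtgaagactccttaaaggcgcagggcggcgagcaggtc
Hsph1: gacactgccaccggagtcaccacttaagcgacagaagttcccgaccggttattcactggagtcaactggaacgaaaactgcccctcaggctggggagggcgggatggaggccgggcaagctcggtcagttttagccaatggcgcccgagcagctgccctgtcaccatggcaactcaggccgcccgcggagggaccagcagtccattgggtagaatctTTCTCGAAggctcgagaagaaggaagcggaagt
Hspa5: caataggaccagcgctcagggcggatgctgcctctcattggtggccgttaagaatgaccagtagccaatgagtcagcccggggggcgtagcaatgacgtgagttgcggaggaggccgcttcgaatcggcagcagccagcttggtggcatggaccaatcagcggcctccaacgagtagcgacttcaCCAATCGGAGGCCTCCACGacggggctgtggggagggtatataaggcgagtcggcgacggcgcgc

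Both strands were searched in the window from 250 bases before to 50 bases after the start, in 32851 RefSeq promoters of 27025 mouse genes. The table held 6 promoters of 5 of the chaperone genes, 2 of them for *Hsph1*. A heat shock element of 2 units was found in 4 of these 6 promoters, belonging to *Hspa1a*, *Hspa1b* and *Hsph1*, and in 15.06% of all promoters. In *Hspa1a* and *Hspa1b* it was the same match, GAAGATTC, starting 104 bases before the transcript start. The windows of this pair are near copies, and the 2 windows of *Hsph1* overlap, so the 4 promoters are not 4 independent cases. *Hsph1* held TTCTCGAA from 33 to 26 bases before its first start and, in the 50 bases after that start, the match of 3 alternating units TTCTGGAAAGTTC, from base 37 to base 49. The latter is made of 2 overlapping matches of 2 units (bases 37 to 44 and 42 to 49), and the same bases lie at 16 to 28 counted from the second start, 21 bases downstream. A match of 3 units (GAA and TTC in turn, each separated from the next by any 2 bases) was present in 0.6027% of all promoters.

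The promoter of *Hspa5* held no heat shock element in these letters but the endoplasmic reticulum stress element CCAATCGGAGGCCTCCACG, from 65 to 47 bases before the start, which 39 of the 32851 promoters (0.1187%) contained. *Hspa5* also had 4 matches of CCAAT, 1 of them inside that element. CCAAT was found in 5 of the 6 promoters against 37.41% of all promoters, and TATAAA in none of the 6 against 13.62%. The promoter of *Hspa4l* held no match to any of these motifs. Of the other heat shock genes described below (the cochaperone and Hsp90 lists), 7 had entries in the table, and 5 of their 11 promoters held a heat shock element of 2 units. Across the promoters of all listed genes the share was 17.46% (44 of 252). Across those of the listed genes that were higher, which include the chaperone genes, it was 22.78% (18 of 79). The matches are strings of letters and not measured binding sites, and less regular heat shock elements were not searched.

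**Figure D1:**
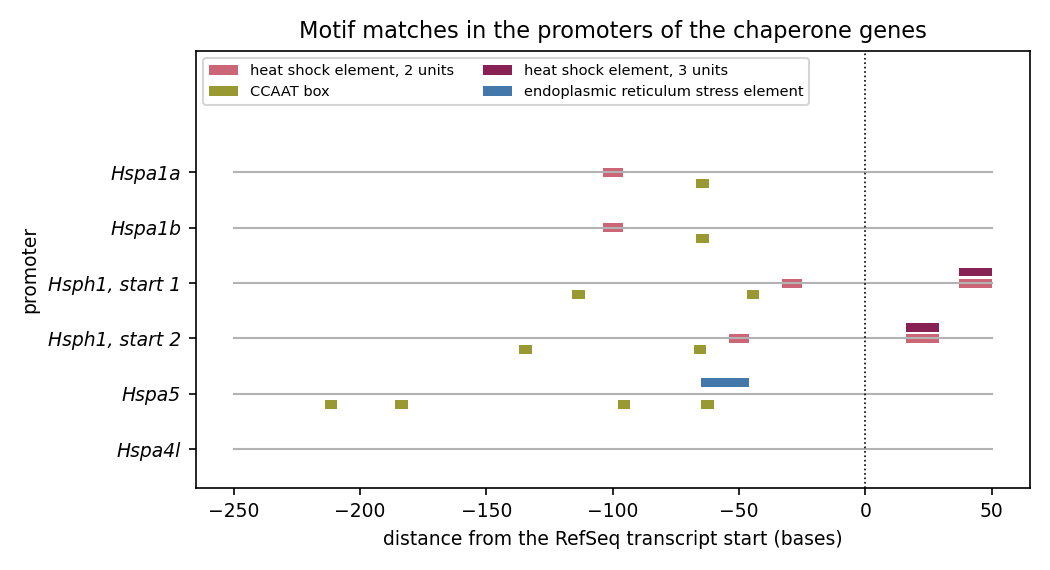
Motif matches in the promoters of the chaperone genes, by distance in bases from the RefSeq transcript start (dotted line at the start); each row is 1 promoter and each coloured box 1 match. *Hspa1a* and *Hspa1b* share the position of their heat shock element, *Hsph1* has elements on both sides of its starts, *Hspa5* has the endoplasmic reticulum stress element, and *Hspa4l* has no match.

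*Hspa1a* and *Hspa1b* are a duplicated pair, single-exon genes without introns on the minus strand of chromosome 17 (GRCm38). *Hspa1a* (ENSMUSG00000091971) lies at chr17:34969190-34972156 and *Hspa1b* (ENSMUSG00000090877) at chr17:34956436-34959238, with 9952 bases between them. Their promoter windows were identical at 296 of 300 bases. The substitutions, with the base of *Hspa1a* first and positions counted from 1 at the 5′ end of the window, were C44T, T47C, T249G and C276T, and none touched the heat shock element. Their coding sequences were identical at 1915 of 1923 aligned bases (99.6%).

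This likeness limits what can be said of each gene on its own. Of all stretches of 100 bases in the *Hspa1a* transcript, 47.1% occurred unchanged in *Hspa1b*, and 49.9% of those of *Hspa1b* occurred in *Hspa1a*. For stretches of 150 bases the shares were 38.1% and 40.5%. A read that lies wholly within a shared stretch cannot be placed in 1 of the 2 genes by its own sequence. How the authors' counting treated such reads is not given in the sources used here. *Hspa1a* is also overlapped on the other strand by *Gm20481*, and the strand setting of the counting is not given either. For *Hspa8*, 63.4% of the stretches of 100 bases occurred in transcripts of other genes, 58.5% in *Gm15459* alone. No such stretch was found for *Hspa5*, *Hspa4l* or *Hsph1*.

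The inducible pair had the largest log2 fold changes of all 309 listed genes. *Hspa1a*, a stress-inducible cytosolic Hsp70, was at 4709 and 4018 normalized counts in libraries 51 and 53 of *Efhd2*f/f Vil1cre/+ IECs, and at 268.7 and 76.7 in libraries 50 and 52 of *Efhd2*f/f IECs. The lower *Efhd2*f/f Vil1cre/+ library was 15.0 times the higher control, so the genotypes did not overlap. The means were 4364 ± 489 and 173 ± 136 normalized counts (means ± s.d., n = 2 libraries each), with a log2 fold change of 4.91 (standard error 0.90), which ranked 1 among the listed genes.

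*Hspa1b*, which encodes nearly the same protein, was at 13325 and 9581 normalized counts in libraries 51 and 53 and at 936.2 and 205.0 in libraries 50 and 52. Again both *Efhd2*f/f Vil1cre/+ libraries were above both controls, with library 53 at 10.2 times library 50. The log2 fold change was 4.68 (standard error 1.12), which ranked 2. The standard errors of the pair were the widest of the 6 genes, and the distance between the control libraries made most of them: library 50 had 3.50 times the *Hspa1a* and 4.57 times the *Hspa1b* of library 52, against ratios of 1.17 and 1.39 between libraries 51 and 53. Without library 52 the log2 fold changes of *Hspa1a* and *Hspa1b* were 4.01 and 3.59, and without library 50 they were 5.81 and 5.78.

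Because reads could be split between the pair, their normalized counts were also added up. The sum was 18034 and 13599 in libraries 51 and 53 and 1205 and 281.8 in libraries 50 and 52. Its log2 fold change was 4.75 (standard error 1.07), between those of the single genes. In each library *Hspa1b* was the higher of the pair, with a ratio of *Hspa1b* to *Hspa1a* of 2.83, 2.38, 3.48 and 2.67 in libraries 51, 53, 50 and 52.

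**Figure D2:**
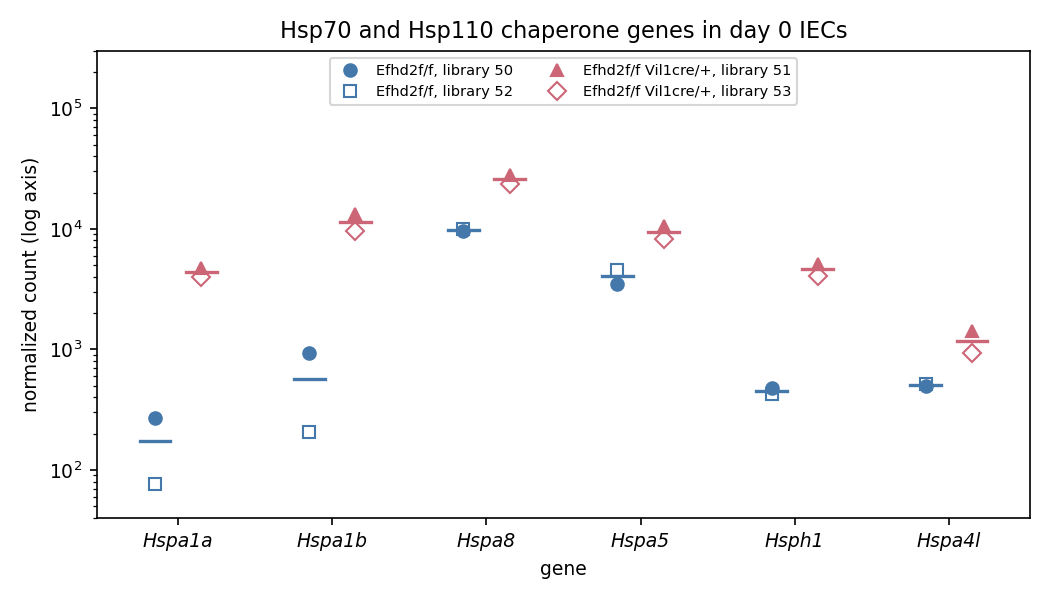
Normalized counts of the 6 chaperone genes in each day 0 library, on a log axis; symbols are single libraries, horizontal lines are the mean of the 2 libraries of a genotype, and the table lists values for 2 libraries of each. For each gene both *Efhd2*f/f Vil1cre/+ libraries lie above both *Efhd2*f/f libraries, and the 2 controls are far apart for *Hspa1a* and *Hspa1b* but close for *Hspa8*, *Hspa4l* and *Hsph1*.

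*Hspa8* (ENSMUSG00000015656, chr9:40800984-40810087, plus strand, 9 exons) encodes Hsc70, the constitutive cytosolic Hsp70 that also serves clathrin uncoating and chaperone-mediated autophagy. It had the highest mean normalized count of all 309 listed genes, with 27983 and 23360 in libraries 51 and 53 and 9670 and 9947 in libraries 50 and 52. The controls differed by little and the *Efhd2*f/f Vil1cre/+ libraries were 2.62 times as high on average, with no overlap. The log2 fold change was 1.38 (standard error 0.13), the tightest of the 6. The snoRNA genes *Snord14c*, *Snord14d* and *Snord14e* lie within *Hspa8* on the same strand.

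*Hspa5* (ENSMUSG00000026864, chr2:34771970-34777547, plus strand, 9 exons) encodes BiP, the Hsp70 of the endoplasmic reticulum, which also holds the sensors of the unfolded protein response in check. Its normalized counts were 10527 and 8304 in libraries 51 and 53 and 3500 and 4553 in libraries 50 and 52. Here the order of the controls was the opposite of that for *Hspa1a* and *Hspa1b*, with library 52 the higher. The lowest *Efhd2*f/f Vil1cre/+ library was 1.82 times the highest control, and the log2 fold change was 1.23 (standard error 0.26).

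The Hsp110 proteins are distant relatives of Hsp70 that exchange its nucleotide and help to dissolve aggregates. *Hsph1* (ENSMUSG00000029657, chr5:149614287-149636376, minus strand, 18 exons), which encodes the inducible Hsp105, was at 5148 and 4081 normalized counts in libraries 51 and 53 and at 474.3 and 430.0 in libraries 50 and 52. The genotypes were 10.2-fold apart on average, and the controls were within 1.10-fold of each other. Its log2 fold change of 3.34 (standard error 0.18) ranked 6 among the listed genes.

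*Hspa4l* (ENSMUSG00000025757, chr3:40744495-40796103, plus strand, 19 exons), a second Hsp110 gene best known from the testis, was at 1427 and 940.0 normalized counts in libraries 51 and 53 and at 494.9 and 513.4 in libraries 50 and 52. The controls were close together and the *Efhd2*f/f Vil1cre/+ libraries were 1.52-fold apart, the widest ratio in that genotype among the 6 genes. The log2 fold change of 1.20 (standard error 0.30) was the smallest of the 6. The coding sequences of *Hspa4l* and *Hsph1* were identical at 69.4% of aligned bases, so the pair differed in sequence far more than *Hspa1a* and *Hspa1b* did.

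All 6 genes had both *Efhd2*f/f Vil1cre/+ libraries above both controls. Among all listed genes this held for 99 of 309 (32.0%), which are the genes listed as higher, so the count of 6 follows from the choice of the genes and nothing is read from it. The median log2 fold change of the 6 genes was 2.36, beside 1.45 over the 99 listed genes that were higher and -1.17 over all 309. The 6 genes formed a group with large differences (*Hspa1a*, *Hspa1b* and *Hsph1*, from 3.34 to 4.91) and a group near the listing threshold (*Hspa8*, *Hspa5* and *Hspa4l*, from 1.20 to 1.38). Within the first group, *Hspa1a* and *Hspa1b* differed by less than their standard errors. Within the second group *Hspa5* and *Hspa4l* did so too, whereas *Hspa8* and *Hspa5* differed by more than the standard error of *Hspa8* and by less than that of *Hspa5*. With libraries scaled to 1 common sum of the listed genes, the second group was at 0.77 (*Hspa8*), 0.61 (*Hspa5*) and 0.58 (*Hspa4l*), and the first group at 2.73 or above. The 6 genes are themselves part of that sum, with 24.6% and 24.5% in libraries 51 and 53 and 10.2% and 10.5% in libraries 50 and 52. This scaling thus takes out part of their own difference. It lowers every log2 fold change by about the same amount, so the gap between the groups is kept by construction.

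**Figure D3:**
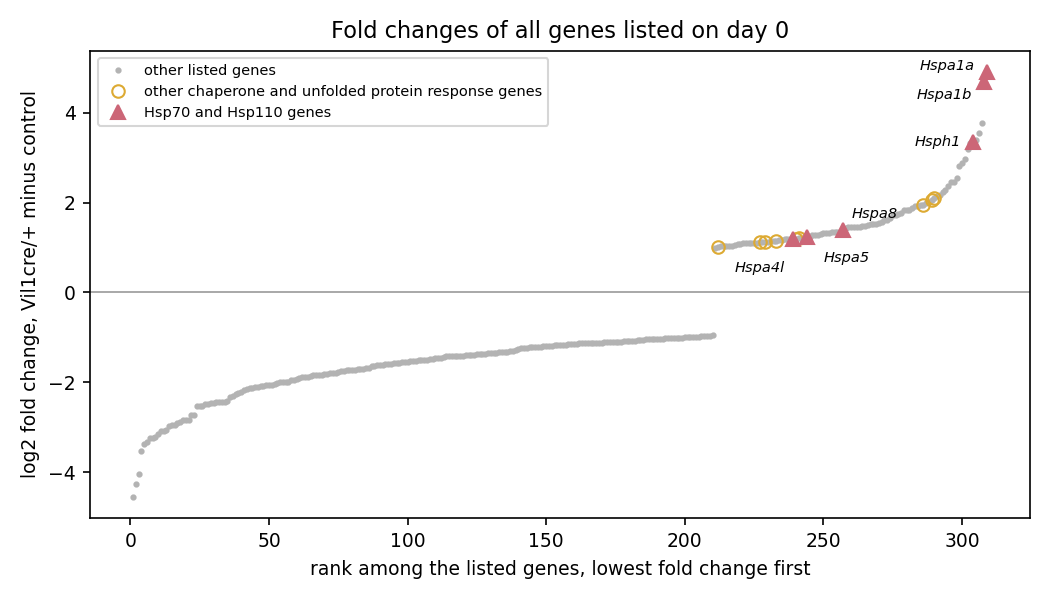
Log2 fold change of each of the 309 genes listed on day 0 (*Efhd2*f/f Vil1cre/+ minus *Efhd2*f/f on the log2(normalized count + 1) scale), ordered from the lowest to the highest. Triangles mark the 6 chaperone genes, of which 3 lie at 3.34 or above and 3 between 1.20 and 1.38, and open circles mark other listed chaperone and unfolded protein response genes, all between 1.01 and 2.11; the gap around 0 is the listing threshold.

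To compare levels between genes, normalized counts were divided by gene length in kilobases. In *Efhd2*f/f IECs *Hspa8* came first, with 2280 ± 46 normalized counts per kilobase (means ± s.d., n = 2), followed by *Hspa5* with 952 ± 176. *Hspa1b* (204 ± 184), *Hsph1* (62.2 ± 4.3), *Hspa1a* (58.2 ± 45.8) and *Hspa4l* (42.8 ± 1.1) were lower. With this length, *Hsph1* and *Hspa1a* did not differ beyond their spread in the controls, and neither did *Hspa1a* and *Hspa4l*. The place of *Hsph1* depends on the length used, as given below. *Hspa1b* overlapped with *Hsph1* only when its spread was counted, since its lower control was 73.2 and the higher control of *Hsph1* 65.3.

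In *Efhd2*f/f Vil1cre/+ IECs *Hspa1b* moved up to the second place. Per kilobase, *Hspa8* was at 5969 ± 760, *Hspa1b* at 4086 ± 944, *Hspa5* at 2226 ± 372, *Hspa1a* at 1471 ± 165, *Hsph1* at 635 ± 104 and *Hspa4l* at 100.4 ± 29.2. No 2 neighbours in this order overlapped between their library ranges. *Hspa1a* and *Hspa1b* are placed in these orders with the reservation on shared reads.

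The make-up of the 6 genes together shifted between the genotypes. Per kilobase of gene length, *Hspa1a* and *Hspa1b* together made 39.2% and 37.3% of the sum of the 6 genes in libraries 51 and 53, but 11.8% and 2.76% in libraries 50 and 52. *Hspa8* made 40.2% and 42.4% of the sum in libraries 51 and 53 and 62.3% and 64.4% in libraries 50 and 52. The sum itself was 14487 ± 2374 normalized counts per kilobase in *Efhd2*f/f Vil1cre/+ IECs and 3599 ± 12 in *Efhd2*f/f IECs. Although the controls differed several-fold in *Hspa1a* and *Hspa1b*, their sums over the 6 genes were nearly equal, with 3608 and 3591.

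The gene length in the table is the length of all annotated exons of a gene merged. For *Hspa8* (4301 bases) and *Hsph1* (7266 bases) it is longer than the main transcript (2394 and 3802 bases). With main transcript lengths, the share of *Hspa1a* and *Hspa1b* was 28.3% and 26.6% in libraries 51 and 53 and 7.59% and 1.75% in libraries 50 and 52. *Hspa8* then made 52.2% and 54.3% in libraries 51 and 53 and 72.2% and 73.4% in libraries 50 and 52, so the direction of the shift stayed and the shares moved. On this scale *Hsph1* was at 1354 and 1073 normalized counts per kilobase in libraries 51 and 53, just under the lower value of *Hspa1a*. In libraries 50 and 52 *Hsph1* was at 124.8 and 113.1. Both values lay above those of *Hspa1a* (90.6 and 25.9) and between those of *Hspa1b* (334.0 and 73.2). Of all normalized counts summed over the 309 listed genes, the 6 genes held 24.6% and 24.5% in libraries 51 and 53 and 10.2% and 10.5% in libraries 50 and 52.

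**Figure D4:**
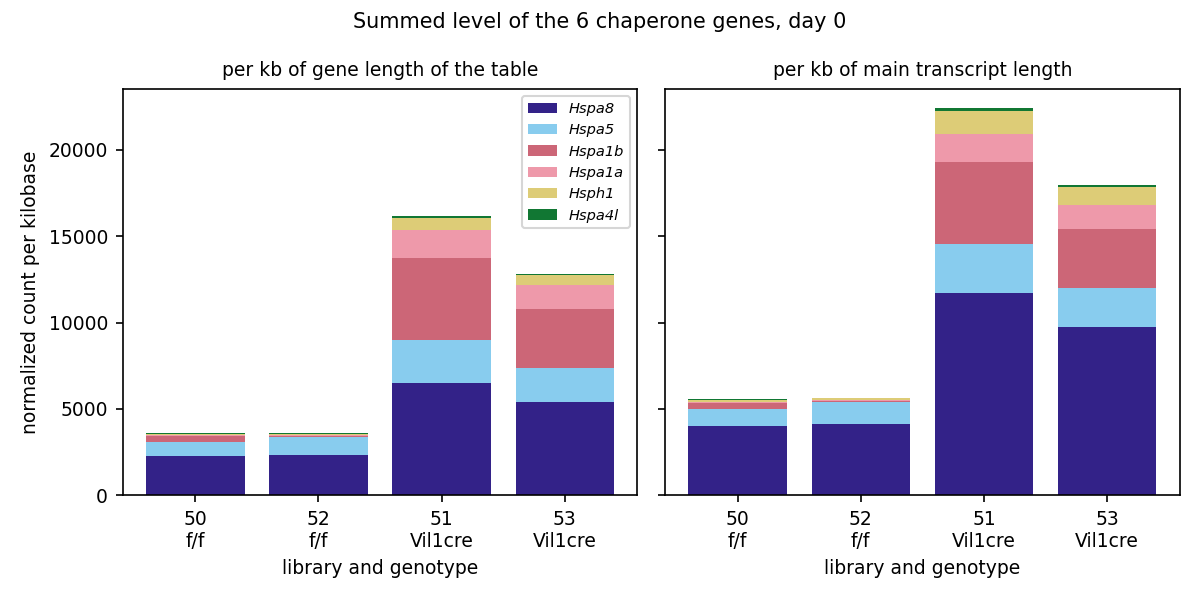
Summed level of the 6 chaperone genes in each day 0 library, in normalized counts per kilobase, stacked by gene; the left panel divides by the gene length of the table and the right panel by the length of the main transcript. The sum is 16166 and 12809 in libraries 51 and 53 and 3608 and 3591 in libraries 50 and 52 in the left panel, and in both panels *Hspa8* is the tallest part of the control bars.

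The libraries of a genotype were then compared with each other. In *Efhd2*f/f Vil1cre/+ IECs, library 51 was above library 53 for 6 of the 6 genes, against 127 of 309 listed genes (41.1%) and 57 of the 99 listed as higher. The ratios ran from 1.17 for *Hspa1a* to 1.52 for *Hspa4l*, with a median of 0.34 on the log2 scale, beside -0.08 over all listed genes. The 8 other listed genes of the cochaperone and Hsp90 lists were also higher in library 51, so listed chaperone genes were together higher in the same library of this genotype. The sum over all listed genes was higher in library 51 as well (257002 against 205066 normalized counts), although only 127 of 309 genes were higher there. Single genes of high level weigh heavily in this sum, such as *mt-Co2*, which averaged 16899 normalized counts over the day 0 libraries. Its log2 ratio of library 51 to library 53 was 2.31. The 6 genes held nearly the same share of the sum in both libraries (24.6% and 24.5%), which does not show that they followed the other listed genes.

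In *Efhd2*f/f IECs the 6 genes did not move together. Library 50 was above library 52 for *Hspa1a*, *Hspa1b* and *Hsph1*, 3 of the 6, against 197 of 309 listed genes (63.8%) and 26 of the 99 listed as higher. *Hspa8*, *Hspa5* and *Hspa4l* were higher in library 52. Of the 8 other cochaperone and Hsp90 genes, *Dnajb4* alone was higher in library 50. Among the 152 listed genes that averaged 100 normalized counts or more, *Hspa1b* and *Hspa1a* had the second and the fourth largest log2 ratio of library 50 to library 52 (2.19 and 1.80). The control libraries thus stood far apart for the pair, while most other listed chaperone genes were lower in library 50, as were most genes listed as higher.

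Markers of T and NK cells also moved between these libraries. Of 14 markers 6 were listed (*Xcl1*, *Trdc*, *Trac*, *Nkg7*, *Cd7* and *Cd3d*), and each was lower in *Efhd2*f/f Vil1cre/+ IECs, with a median log2 fold change of -1.11. Of all listed genes 32.0% were higher and the other 210 of 309 lower. The summed level of the 6 markers was 1077 and 1277 normalized counts in libraries 51 and 53 and 3250 and 1991 in libraries 50 and 52. None was at 0, and 5 of the 6 were higher in library 50 than in library 52, the order that *Hspa1a* and *Hspa1b* had. That order was held by 197 of 309 listed genes (63.8%), but by 26 of the 99 listed as higher, so it is not particular to these markers. Their part in the levels of the chaperone genes was not tested.

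Of 6 fibroblast and endothelium markers, *Dcn* and *Pecam1* were listed as lower, with a sum of 69.0 and 109.8 in libraries 51 and 53 and 251.9 and 211.9 in libraries 50 and 52. The part of these cells was not tested. The water channel *Aqp8*, a colonocyte marker, was lower too (log2 fold change -1.15), while the colonocyte markers *Car1* and *Slc26a3* were not listed. *Aqp8* was at 2213 and 3293 normalized counts in libraries 51 and 53 and at 5138 and 6943 in libraries 50 and 52. Its higher control was thus library 52, unlike for *Hspa1a* and *Hspa1b*. The 7 pan-epithelial markers and the goblet cell markers were not listed on day 0, so the epithelial label could not be checked against their levels. Further genes of other cell types were looked up after their values had been seen. Of 21 enteroendocrine genes, 7 were listed, all as lower, namely *Chga* (log2 fold change -1.17), *Chgb* (-1.03), *Pyy* (-1.21), *Nts* (-1.96), *Insm1* (-1.40), *Fev* (-1.70) and *Pax6* (-1.76). Their sum was 4687 and 5843 normalized counts in libraries 51 and 53 and 13207 and 9919 in libraries 50 and 52. All 7 were higher in library 50 than in library 52, as were 197 of 309 listed genes (63.8%), *Hspa1a* and *Hspa1b* among them. The order is thus not particular to enteroendocrine genes.

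The 8 B and plasma cell markers and 7 myeloid markers of the first lists were not listed on day 0, but other genes of these cells were. Of 11 further B and plasma cell genes, 7 were listed, 6 as lower, among them *Ighd* (-2.53), *Ighg2b* (-2.44) and *Pou2af1* (-1.71), and *Igkv8-24* as higher (2.89). Their sum was 83.1 and 73.1 in libraries 51 and 53 and 345.4 and 193.7 in libraries 50 and 52. Of their values, 2 were at 0, and *Igkv8-24* averaged only 6.17 normalized counts over the day 0 libraries. Of 6 further myeloid genes, 2 were listed, *Fcer1g* (-1.98) and *Itgax* (-1.07), both as lower. The sum of these 2 was 149.0 and 156.0 in libraries 51 and 53 and 460.7 and 337.0 in libraries 50 and 52. Of all listed genes, 210 of 309 were lower. The part of these cell types in the levels of the chaperone genes was not tested. In such bulk samples, fewer cells of a type and less RNA per cell cannot be told apart.

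**Figure D5:**
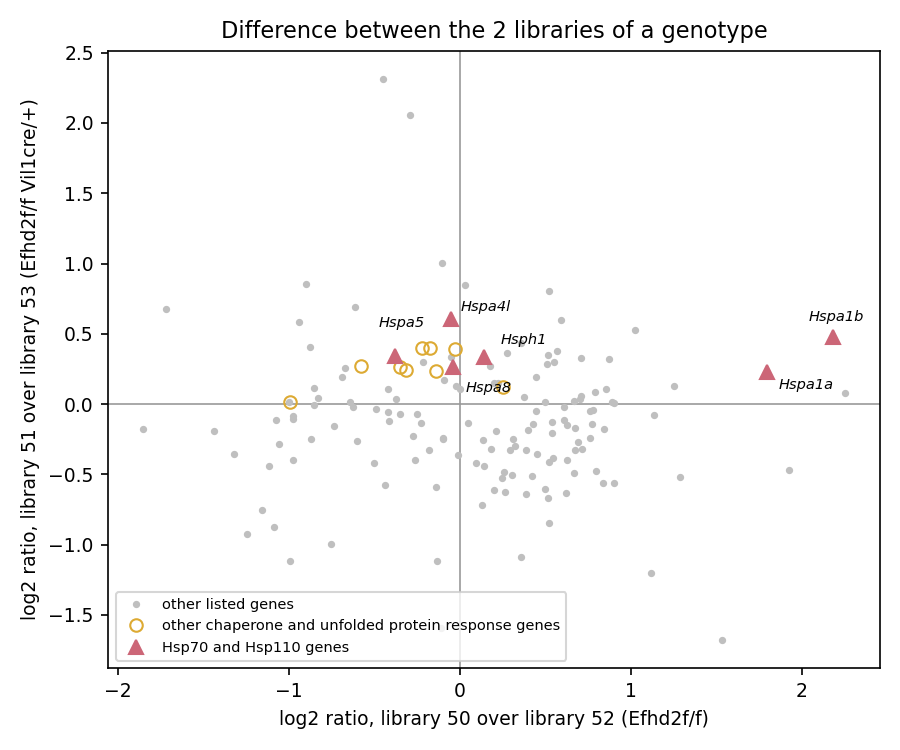
Log2 ratio of library 50 to library 52 (*Efhd2*f/f, horizontal axis) against the log2 ratio of library 51 to library 53 (*Efhd2*f/f Vil1cre/+, vertical axis), for the 152 listed genes that averaged 100 normalized counts or more; each point is a gene. The 6 chaperone genes (triangles) all lie above 0 on the vertical axis, and *Hspa1a* and *Hspa1b* lie at 1.80 and 2.19 on the horizontal axis, apart from the other 4 genes.

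Other genes of the Hsp70 system were listed in the same direction. Of all listed genes 32.0% were higher, and the share of all measured genes that was listed cannot be taken from tables of listed genes. Of 15 genes of the Hsp70 and Hsp110 families, 7 were listed, all as higher, namely the 6 genes above and *Hyou1*, the Hsp110-type exchange factor of the endoplasmic reticulum. Since the 6 genes were taken because they were listed, *Hyou1* is the 1 gene that this count adds. *Hyou1* was at 2150 and 1788 normalized counts in libraries 51 and 53 and at 861.4 and 1097 in libraries 50 and 52. Its libraries kept the order of *Hspa5*, with library 52 the higher control, and its log2 fold change of 1.01 lay next to the threshold. The other 8 genes (*Hspa1l*, *Hspa2*, *Hspa4*, *Hspa9*, *Hspa12a*, *Hspa12b*, *Hspa13* and *Hspa14*) were not listed, among them *Hspa9*, the mitochondrial Hsp70, and *Hspa1l*, whose gene lies 547 bases from *Hspa1a*.

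Of 26 Hsp70 cochaperones, 5 were listed, all as higher (32.0% of all listed genes were), with a median log2 fold change of 1.21, beside 1.45 over all listed genes that were higher. They were the J-domain proteins *Dnaja1* (2.06), *Dnajb1* (1.95) and *Dnajb4* (1.11), the exchange factor *Bag3* (1.21), which links Hsp70 to selective autophagy, and *Stip1* (1.20), which hands clients from Hsp70 to Hsp90. Of these, *Dnajb1* was at 802.5 and 1601 normalized counts in the control libraries 50 and 52, the opposite order of *Hspa1a* and *Hspa1b*. The other 21 cochaperones, such as *Bag1* and *Stub1*, were not listed.

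Of 21 Hsp90, small heat shock, chaperonin and related genes, 3 were listed, again as higher: *Hsp90aa1*, the inducible cytosolic Hsp90 (2.11), *Chordc1*, an Hsp90 cochaperone (1.15), and *Fkbp4*, another (1.11). *Hsp90aa1* was at 8998 and 6829 normalized counts in libraries 51 and 53 and at 1688 and 1965 in libraries 50 and 52, with no overlap. Neither *Hspb1* and *Hspb8*, which encode small heat shock proteins, nor the chaperonin genes *Hspd1* and *Hspe1* were listed. Of 25 genes of the endoplasmic reticulum unfolded protein response, *Hspa5* and *Hyou1* were listed and 23 were not, including *Hsp90b1*, *Calr*, *Ddit3* and *Xbp1*.

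Of 27 immediate early and stress response genes, 4 were listed as higher, with log2 fold changes of 2.82 (*Gdf15*, a stress-induced cytokine), 2.46 (*Mt1*, a metal-binding metallothionein), 1.50 (*Nr4a1*, an orphan nuclear receptor) and 1.34 (*Fosl1*, a subunit of AP-1). In each of these 4 genes library 52 was the higher control and library 53 the higher *Efhd2*f/f Vil1cre/+ library. This order was the reverse of that of *Hspa1a* and *Hspa1b* in both genotypes. Among the 99 genes listed as higher, library 50 was above library 52 for 26 and library 51 above library 53 for 57. A higher library 52 was thus usual for such genes, and among the controls the order of the pair was the less common one. *Fos*, *Jun*, *Egr1* and *Atf3* were not listed.

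The 5 other listed genes, of those averaging 100 normalized counts or more, whose profile over the 4 day 0 libraries was most like the mean profile of the 6 genes were *B3gnt7*, *Mt1*, *Hsp90aa1*, *Dnaja1* and *Gm3608*. The likeness was measured as the root mean square distance between centred log2 profiles, which was 0.29, 0.41, 0.45, 0.49 and 0.51. *B3gnt7*, which encodes a glycosyltransferase, was at 1034 and 1026 normalized counts in libraries 51 and 53 and at 252.9 and 178.3 in libraries 50 and 52, so its higher control was library 50. With 4 libraries, which also served to list these genes, the distance describes these samples only.

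On day 7, after DSS, none of the 15 Hsp70 and Hsp110 genes was among the 128 listed genes, and no cochaperone or unfolded protein response gene of the lists above was. *Hmox1*, which encodes heme oxygenase and stands on the Hsp90 and heat shock list and on the stress response list, was the only gene of these lists that was listed on day 7. The levels of the 6 chaperone genes on day 7 were not analysed here. Whether their difference between the genotypes changed with DSS was therefore not tested, and absence from the day 7 list does not show equal levels.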

How the data were processed

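RNA of primary colonic IECs was sequenced from 4 groups of 2 libraries. Per the labels, the authors' processing used CASAVA 1.8, fastp, HISAT2 2.0.5, featureCounts 1.5.0-p3 and DESeq2 1.20.0 on GRCm38. The deposited signal is a normalized count per gene and library. The scaling is not given in the sources used here, whole reads were not recovered, and each day's table was normalized separately. The deposited tables also hold the authors' own comparison (log2 fold change and p-values, raw and adjusted), which was not used.

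Values under 1e-06 were set to 0 (25 on day 0, 14 on day 7). Fold changes are differences of means of log2(normalized count + 1), with standard errors from the spread within genotypes, and they understate changes of low genes. No test was made, because the comparison had chosen the genes. Samples were grouped by their titles. Exons, transcripts and coding sequences came from GENCODE release M21, which held all 309 listed genes, 294 with the same coordinates, and promoters came from RefSeq. Sequences were aligned with Biopython 1.88, and calculations used Python 3.11.15, pandas 2.3.3, numpy 2.4.6 and matplotlib 3.10.9. The scripts were tested on simulated data.

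The genes, lists and alternatives were chosen with earlier results of these data known. Named genes are the 6 chaperone genes, genes of the lists, the 5 genes of most similar profile and *Efhd2*. *Gm20481*, *Gm15459* and the snoRNA genes were named after seeing the sequence comparison. Further enteroendocrine, B, plasma and myeloid genes and *mt-Co2* were named after seeing their values. Alternatives were pseudocounts of 0.1 and 10, 2 other scalings, each library left out in turn and a mean of at least 50. The *Hspa1a* and *Hspa1b* sum and main transcript lengths were added after seeing the data.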

Additional observations from a re-analysis of the deposited data

How the results depend on the processing

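Each of the 6 chaperone genes was higher in *Efhd2*f/f Vil1cre/+ IECs under each alternative run, and under both other scalings all 6 genes kept both *Efhd2*f/f Vil1cre/+ libraries above both controls. The size of the differences depended on the scaling. Setting the listed genes of each library to the same sum, which shifted the median of all listed genes by -0.61, gave a median log2 fold change of the 6 genes of 1.75 in place of 2.36, with *Hspa8* at 0.77, *Hspa5* at 0.61 and *Hspa4l* at 0.58. Scaling to a median ratio of 1 over the other listed genes shifted it by 1.12 and gave 3.49. Each scaling multiplies all genes of a library by 1 factor, so the log2 fold changes of all genes shift by about the same amount. The shift therefore says nothing particular about the 6 genes. As the tables hold only selected genes, and the common sum includes the 6 genes, neither scaling is a neutral reference.

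Leaving out each library in turn gave a median between 2.21 and 2.51. *Hspa1a* then ranged from 4.01 without library 52 to 5.81 without library 50, and *Hspa1b* from 3.59 to 5.78 in the same way, while *Hsph1* stayed between 3.17 and 3.51 and *Hspa4l* between 0.90 and 1.50. Pseudocounts of 0.1 and 10 moved none of the 6 genes beyond the spread between libraries. The genotypes did not overlap for 99.0% of all listed genes, and for 99.5% of those with a mean of at least 50. A window of the 250 bases before the start lowered the share of all promoters with a heat shock element of 2 units from 15.06% to 12.84%. It left the 4 of 6 of the chaperone genes and lowered the count of the other heat shock genes from 5 to 3 of 11 promoters. The match of 3 units in *Hsph1* lies outside this window. No paired analysis was possible because the columns carry no replicate numbers of the labels and no result comes from a test. Depth limits cannot be given, since the tables hold part of each library.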
